A study of Mus musculus with 4 samples.

Results

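The genes described here are the 7 listed members of the CD40 pathway and its interleukin-12 reporter: Cd40, eYFP, Il12b, Traf1, Relb, Nfkb2 and Birc3. They were picked by name out of 22631 gene columns, and all 7 were found in the count tables. CD45+ cells, the white blood cells of the tumour, were sorted from MC38 tumours, a mouse colon carcinoma line that had grown for 7 days in IL-12p40-IRES-EYFP reporter mice, and were profiled singly by inDrops, where droplets carry barcoded primers and every captured RNA gets a unique molecular identifier (UMI). Of 3 tumours, 2 came from mice given an agonist anti-CD40 antibody into the peritoneum at 5 mg/kg, 2 days before the tumours were taken (anti-CD40 tumours 1 and 2), and 1 came from an untreated mouse. All 3 mice carried the reporter allele, so that no tumour lacked eYFP by genotype. The tumours gave 4440 cells in 12 libraries and 4 sequencing pools, and each tumour was 1 animal in the authors' cell table, so that tumours are the replicates and cells are not.

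CD40 is a receptor of the tumour necrosis factor receptor family on dendritic cells, macrophages and B cells. When it is bound by its ligand or by an agonist antibody, it recruits adaptor proteins of the TRAF family and starts both arms of NF-kB signalling, the canonical one and the alternative one, in which the precursor made from Nfkb2 is processed and pairs with the product of Relb. Dendritic cells that receive this signal are known to mature, to move towards lymph nodes and to make interleukin-12, whose p40 chain is encoded by Il12b. Traf1 encodes a TRAF adaptor and Birc3 encodes cIAP2, a ubiquitin ligase bound to TRAF proteins; Traf1, Relb, Nfkb2 and Birc3 are also known targets of NF-kB. In the reporter mice, eYFP follows the p40 coding sequence on the same messenger RNA, behind an internal ribosome entry site.

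In GENCODE M21 on GRCm38, Cd40 lies on chromosome 2 from 165055627 to 165072948 on the plus strand, Il12b on chromosome 11 from 44400063 to 44414033 (plus), Traf1 on chromosome 2 from 34941750 to 34961772 (minus), Relb on chromosome 7 from 19606217 to 19629438 (minus), Nfkb2 on chromosome 19 from 46304320 to 46312385 (plus) and Birc3 on chromosome 9 from 7848699 to 7873186 (minus). All 6 are protein-coding genes, and eYFP is a transgene. Exons of Nfkb2 overlap exons of Psd and AC114539.1 on the other strand, and the use of strand in counting is not given in the sources used here, so that Nfkb2 counts are uncertain to that extent. The promoter table of RefSeq (GRCm38.p6) held 4 of the 7 genes. Windows of 250 bases upstream of a transcript start are shown for the reporter's host gene, for the adaptor gene and for 1 of the Nfkb2 starts, because the last 2 genes rose with the reporter in the comparisons given further on; capitals mark matches on either strand to GGG and CC with any 5 bases between them, a simple form of the NF-kB motif.
Il12b, chr11:44399813-44400062 (+): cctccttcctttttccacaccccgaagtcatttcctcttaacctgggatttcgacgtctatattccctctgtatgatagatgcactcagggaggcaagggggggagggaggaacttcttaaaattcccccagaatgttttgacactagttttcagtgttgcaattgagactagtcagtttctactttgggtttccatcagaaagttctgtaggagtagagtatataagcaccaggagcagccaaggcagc
Traf1, chr2:34961773-34962022 (-): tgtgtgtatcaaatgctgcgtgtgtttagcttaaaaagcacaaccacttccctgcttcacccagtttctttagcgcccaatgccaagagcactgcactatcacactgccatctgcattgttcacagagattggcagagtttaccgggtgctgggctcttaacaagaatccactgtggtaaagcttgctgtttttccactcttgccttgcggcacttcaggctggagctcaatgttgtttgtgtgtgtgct
Nfkb2, the second listed start, chr19:46305445-46305694 (+): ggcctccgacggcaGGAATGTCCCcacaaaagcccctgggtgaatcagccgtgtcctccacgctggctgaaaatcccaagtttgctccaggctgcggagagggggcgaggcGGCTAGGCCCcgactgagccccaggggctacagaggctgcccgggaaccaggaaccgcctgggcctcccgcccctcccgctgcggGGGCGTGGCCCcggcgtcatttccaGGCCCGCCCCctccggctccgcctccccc
The Nfkb2 window held 5 matching positions, and neither the Il12b nor the Traf1 window held these letters. Of the windows not shown, the first listed Nfkb2 start held 7 positions, the third held 4 and the Birc3 window held 1. Over all genes, 45.8% of 32851 windows of this length held a match, and overlapping matches were counted as separate positions.

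The count of UMIs was 3961141 in all, between 707889 and 1862139 per tumour. Depth per cell differed with treatment: the median was 979 UMIs in anti-CD40 tumour 1, 865 in anti-CD40 tumour 2 and 433 in the untreated tumour. Anti-CD40 tumour 1 shared sequencing pools 1 and 2 with the untreated tumour, and anti-CD40 tumour 2 filled pools 3 and 4 alone. No cell barcode occurred in more than 1 library. Levels are given as UMIs of a gene per 1000000 UMIs of the cells in question (CPM), with exact Poisson 95% intervals that cover counting error only, and changes between conditions were tested on UMIs summed per tumour. With 2 tumours against 1, the fits left 1 residual degree of freedom, so that their p-values rest on the spread shared between genes and take the single untreated animal to be as variable as the treated pair. In such sums, fewer cells of a type and less RNA per cell cannot be told apart.

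Cd40 and eYFP were detected almost wholly in the class that the authors annotated as monocytes, macrophages and dendritic cells (MoMacDC, 2914 cells). Cd40 had 56 UMIs in MoMacDC of anti-CD40 tumour 1, 121 in anti-CD40 tumour 2 and 38 in the untreated tumour, against 1 UMI in 964 neutrophils and 0 in 333 T cells and 197 NK cells of all 3 tumours. The single neutrophil UMI was 1.1 CPM, and a Cd40 UMI was found in 5.39% of MoMacDC cells, at a median depth of 659 UMIs per cell, against 0.104% of neutrophils, at one of 832 UMIs, and the counts of 0 allow up to 13.2 CPM in T cells and 16.3 CPM in NK cells. eYFP had 88, 93 and 56 UMIs in MoMacDC of the same tumours and 0 in every other type, which allows cells with an eYFP UMI to be up to 0.311% of neutrophils, 0.901% of T cells and 1.52% of NK cells and sets no limit on cells that express it below detection. The class carried its defining markers: its 6 macrophage markers summed to 3925, 14432 and 18634 CPM in anti-CD40 tumour 1, anti-CD40 tumour 2 and the untreated tumour. The cells annotated as B cells, a type known to carry CD40, numbered 27 with 0 Cd40 UMIs, and the limit of 169 CPM lay above the MoMacDC level. Their 4 B cell markers had 0, 5 and 2 UMIs in anti-CD40 tumour 1, anti-CD40 tumour 2 and the untreated tumour, against 15, 5 and 23 UMIs of macrophage markers, so that the label was weakly borne out and nothing is read about Cd40 in B cells. The remaining types, plasmacytoid dendritic cells and basophils, held 3 and 2 cells.

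Il12b itself was nearly undetected. It had 1 UMI in each anti-CD40 tumour and 0 in the untreated tumour, where 1136 MoMacDC cells with 569932 UMIs allow up to 5.26 CPM. In these same untreated cells eYFP, which lies on the same messenger RNA by design, had 56 UMIs (98.3 CPM). The Il12b limit is thus one on UMIs counted under that name, and why it differs from eYFP was not tested. The cell of anti-CD40 tumour 1 also held 1 eYFP UMI and 60 UMIs of the mature dendritic cell markers described below, and the cell of anti-CD40 tumour 2 held 0 eYFP UMIs and 36 marker UMIs. No comparison of Il12b was possible, and it entered no test.

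The NF-kB genes were spread more widely. Traf1 was detected in every type with over 40 cells, at 593 CPM (95% interval 538 to 653) in neutrophils of anti-CD40 tumour 1, 330.3 CPM in anti-CD40 tumour 2 and 170.4 CPM in the untreated tumour, and at 462, 346 and 405 CPM in T cells of the same tumours. In NK cells it was 620.2, 164 and 257 CPM, so that the treated tumours lay on either side of the untreated one. Birc3 was 338, 267 and 256 CPM in neutrophils, against 85.6, 92.8 and 59.7 CPM in MoMacDC, and the intervals of the 2 types did not overlap in any of the 3 tumours. Nfkb2 was 179.6, 156 and 85.2 CPM in neutrophils and 185, 159 and 157 CPM in T cells. Relb was the sparsest outside MoMacDC, with 69 UMIs in neutrophils, 13 in T cells and 3 in NK cells over all tumours. Among the authors' neutrophil subsets, given as a description over all tumours, Traf1 was 709.8 CPM in N1b, 675 CPM in N3, 665 CPM in N2, 352 CPM in N5 and 141 CPM in N1a. The intervals of N1b, N2 and N3 overlapped and lay above those of N5 and N1a. Birc3 was 482 CPM in N1b, 402 CPM in N2, 235 CPM in N3, 224 CPM in N1a and 184 CPM in N5.

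**Figure D1:**
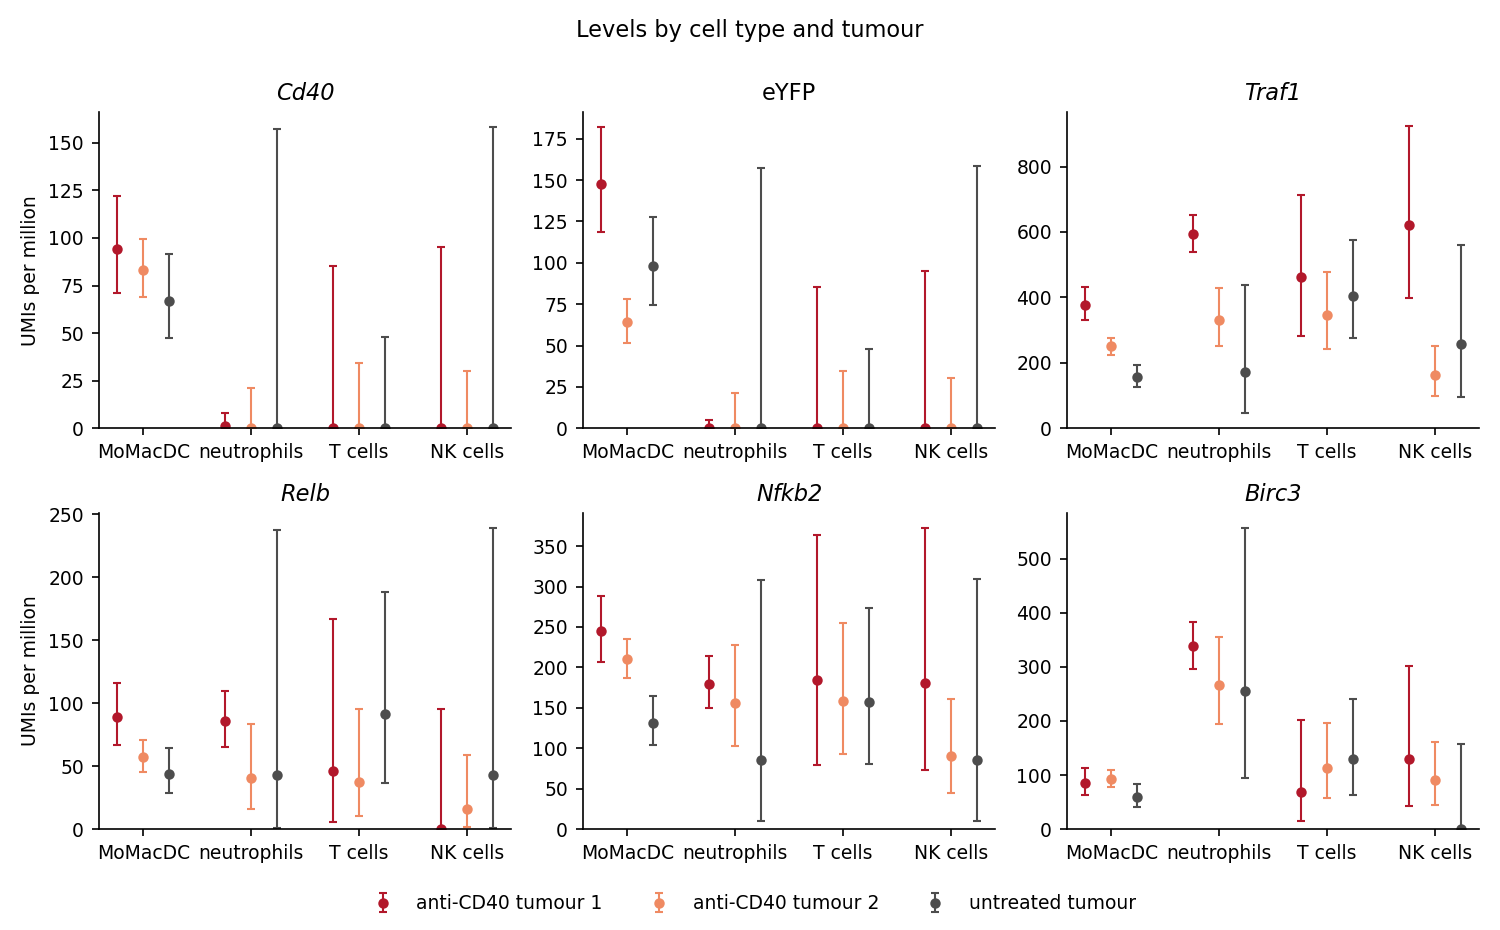
Level of 6 of the 7 genes (CPM, y axis, from 0) in 4 cell types (x axis) for each tumour; points are the sums over a tumour's cells and bars are exact Poisson 95% intervals. Cd40 and eYFP stand above 60 CPM in MoMacDC of every tumour and at or near 0 elsewhere, where the wide bars of the untreated neutrophils and NK cells show how few UMIs those cells hold.

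Under treatment, none of the 6 testable genes passed the threshold in MoMacDC as a whole. Traf1 stood at 378 CPM (329.9 to 430.4) in the first anti-CD40 tumour and at 250.2 CPM (225 to 277) in the second, against 158 CPM (127 to 194) in the untreated tumour. Nfkb2 was 245 and 210.3 CPM in the anti-CD40 tumours, against 132 CPM in the untreated tumour. For both genes, the intervals of the treated tumours lay above that of the untreated one. By library, Traf1 had a lowest, median and highest level of 194.01, 333 and 406 CPM in the 8 anti-CD40 libraries, against 103, 169 and 193.96 CPM in the 4 untreated ones, so that the groups met without overlapping. Their log2 changes were 0.99 ± 0.41 for Traf1 (SE, edgeR quasi-likelihood test, adjusted p = 0.481) and 0.80 ± 0.40 for Nfkb2 (adjusted p = 0.572). Relb had 89.0, 57.1 and 43.9 CPM and Birc3 had 85.6, 92.8 and 59.7 CPM in anti-CD40 tumour 1, anti-CD40 tumour 2 and the untreated tumour; their adjusted p were 0.692 and 0.718. Cd40 had 94.0 and 83.2 CPM in the anti-CD40 tumours, against 66.7 CPM in the untreated tumour, with overlapping intervals and an adjusted p of 0.816. eYFP, at 148 and 63.9 CPM in the anti-CD40 tumours against 98.3 CPM in the untreated tumour, lay above in one treated tumour and below in the other (adjusted p = 0.977). In this comparison 0.169% of 7099 genes passed as higher and 0.239% as lower (adjusted p below 0.05), so that 0 of 6 is near what the background gives. Unadjusted, 1 of the 6 (Traf1) had a p below 0.05 by edgeR and by DESeq2, and DESeq2 also called 0 of them.

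Shares of cells depended on depth. A Cd40 UMI was found in 8.93% and 6.17% of MoMacDC cells of the anti-CD40 tumours, against 3.08% in the untreated tumour. After each cell had been thinned to 300 UMIs, which left out 29 and 67 shallower cells of the anti-CD40 tumours and 281 of the untreated tumour, the shares were 2.63% and 1.66%, against 2.34%. For Traf1 the thinned shares were 11.2% and 7.36%, against 3.74%, and for Nfkb2 they were 7.16% and 5.30%, against 4.33%. For Nfkb2 the interval of anti-CD40 tumour 2 (4.13 to 6.69%) held the untreated share. By value, both treated tumours remained above the untreated one for both genes. Neutrophil markers moved the same way in these cells: 6 of 7 had UMIs in anti-CD40 tumour 1 (Mmp9 at 0) and 7 of 7 in the other tumours, and they summed to 2192 and 971 CPM in the anti-CD40 tumours, against 263 CPM in the untreated tumour. Dissociation genes were also above, at 2844 and 5026 CPM in the anti-CD40 tumours, against 2113 CPM in the untreated tumour, and mitochondrial transcripts were below, at 22131 and 21889 CPM, against 27998 CPM; the part of these lists in the Traf1 and Nfkb2 levels was not tested. Without the 74, 81 and 13 cells of anti-CD40 tumour 1, anti-CD40 tumour 2 and the untreated tumour with at least 3 UMIs of a second type's markers, the Traf1 log2 change was 1.13. Within pool 1 and pool 2, where anti-CD40 tumour 1 can be set against the untreated tumour without a test, it was 1.08 and 1.25, and that of Nfkb2 was 0.87 and 0.66.

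In neutrophils, 4 of the genes could be tested and 0 passed; 0.405% of 2713 genes passed as higher and 0.0369% as lower. The unadjusted p was below 0.05 for 1 of the 4 (Traf1), and DESeq2 called 0. Traf1 had a log2 change of 2.00 ± 0.90 (adjusted p = 0.439), or 1.71 above the median change of all genes in that fit; it was 3.00 without pool 1 and 1.15 without anti-CD40 tumour 1, where no test was possible. The untreated tumour had 49 neutrophils with 4 Traf1 UMIs, and the counting interval of the ratio of both anti-CD40 tumours to it reached from 1.23 to 11.7. In T cells (3 of the genes tested, 1.02% of 1865 genes higher and 1.07% lower) and in NK cells (Traf1 alone tested, 1.01% of 794 genes higher and 0.882% lower), 0 passed by edgeR or DESeq2, adjusted or not, with log2 changes between -0.43 and 0.39.

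Within MoMacDC, the reporter marked a small group of cells. At least 1 eYFP UMI was found in 27 cells of anti-CD40 tumour 1 (6.03%, 95% Clopper-Pearson interval 4.01 to 8.65%), 27 of anti-CD40 tumour 2 (2.03%, 1.34 to 2.94%) and 26 of the untreated tumour (2.29%, 1.5 to 3.34%). The median of these cells was 2, 3 and 1 eYFP UMIs, and the highest cell had 10, 10 and 13. The intervals of anti-CD40 tumour 2 and the untreated tumour overlapped, and that of anti-CD40 tumour 1 lay above both. Thinned to 300 UMIs, the shares were 4.30% (2.57 to 6.70%), 1.27% (0.726 to 2.05%) and 1.64% (0.898 to 2.73%), and the interval of anti-CD40 tumour 1 then overlapped that of the untreated tumour.

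Of the 5 other genes tested, 4 were higher in eYFP-positive than in eYFP-negative MoMacDC cells. Cd40 was 844 CPM in eYFP-positive cells of anti-CD40 tumour 1 against 56.4 CPM in eYFP-negative cells, 971 against 64.6 CPM in anti-CD40 tumour 2 and 158 against 64.6 CPM in the untreated tumour, the last from 2 UMIs. Its log2 change was 3.02 ± 0.48 (edgeR with the tumour as a block, adjusted p = 1.82e-08). This fit, on 3 tumours, left 2 residual degrees of freedom, so that its p-values also rest on the spread shared between genes. Traf1 was 2146 against 289, 1707 against 219.7 and 1346 against 131 CPM in the same pairs (log2 change 2.59 ± 0.38, adjusted p = 5.83e-10). Both genes were higher in the eYFP-positive cells of 3 of 3 tumours. Relb rose by 2.33 ± 0.56 (adjusted p = 5.64e-04) and Nfkb2 by 2.07 ± 0.43 (adjusted p = 3.66e-05) on the log2 scale, while the value for Birc3 was 0.56 ± 0.68 (adjusted p = 0.660). The Relb call was lost without pool 2 (1.87, adjusted p = 0.0733) or without anti-CD40 tumour 2 (2.35, adjusted p = 0.0757). Of 5306 genes tested, 5.33% passed as higher and 10.2% as lower, and the median change of all genes was -0.57. Relative to this median, the members stood at 3.59 for Cd40, 3.16 for Traf1, 2.90 for Relb and 2.64 for Nfkb2.

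Counted by cells, Cd40 was co-detected in 11 of 27 and 11 of 27 eYFP-positive cells of the anti-CD40 tumours (40.7% each) and in 2 of 26 of the untreated tumour (7.69%), against 6.89%, 5.45% and 2.97% of the eYFP-negative cells. Traf1 was found in 88.9%, 88.9% and 38.5% of eYFP-positive cells, against 24.9%, 16.7% and 5.77% of eYFP-negative cells. Nfkb2 was found in 63.0%, 55.6% and 30.8%, against 19.5%, 16.4% and 5.50%. Median depth was 868, 1171 and 427.5 UMIs in eYFP-positive cells, against 1065, 917 and 425 UMIs in eYFP-negative cells, so that the positive cells were not deeper in every tumour. At 300 UMIs per cell, the Cd40 shares were 11.1%, 11.5% and 4.55% of eYFP-positive cells, against 2.04%, 1.46% and 2.28% of eYFP-negative cells.

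**Figure D2:**
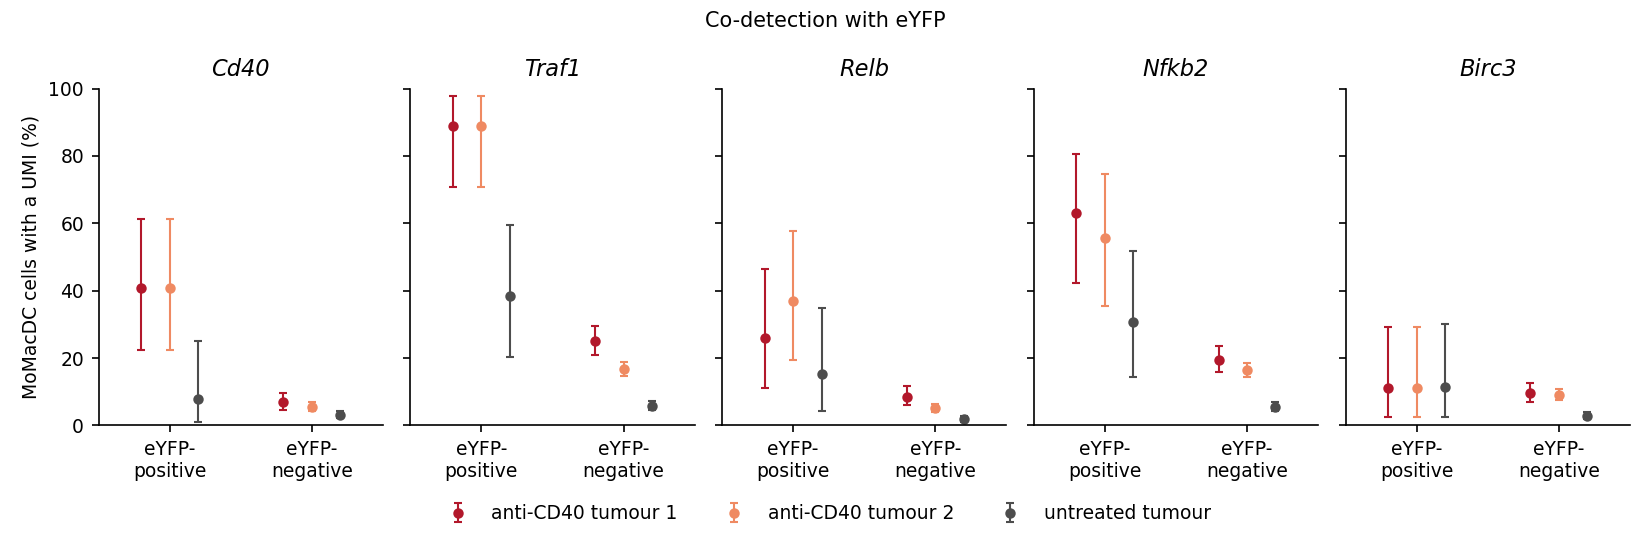
Share of MoMacDC cells with a UMI of each gene (y axis, percent) in eYFP-positive and eYFP-negative cells of each tumour; bars are Clopper-Pearson 95% intervals. Traf1 and Nfkb2 are more often detected in the eYFP-positive cells of all 3 tumours, Cd40 in those of the anti-CD40 tumours beyond the intervals, and Birc3 intervals overlap throughout.

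Mature dendritic cell markers were among the genes most like eYFP in MoMacDC. Among 147 genes that passed as higher with at least 20 UMIs in eYFP-positive cells, the 10 with the smallest p were Fscn1, Ccl22, Ccr7, Sema7a, Tbc1d4, Serpinb6b, Ccl5, Flrt3, Tmem123 and Cacnb3; of these, Fscn1, Ccl22, Ccr7, Tbc1d4 and Cacnb3 belong to the marker list used further on. Fscn1, the actin-bundling protein of mature dendritic cells, had a log2 change of 4.91 ± 0.35 (adjusted p = 1.02e-39), and Ccr7, the receptor that guides them to lymph nodes, one of 4.26 ± 0.36 (adjusted p = 1.58e-29). Across the 12 sums of MoMacDC, neutrophils, T cells and NK cells in 3 tumours, the gene with the highest Pearson correlation to Cd40 among 3067 genes was Tmem51 (r = 0.992), followed by eYFP (0.990), Adap2 (0.989), Fscn1 (0.984) and F13a1 (0.977). The other members were far down that order, with r of 0.46 for Nfkb2 (rank 593), 0.33 for Relb (rank 1053), -0.13 for Birc3 (rank 2507) and -0.26 for Traf1 (rank 2695). These sums share libraries, and the values mostly separate MoMacDC from the other 3 types; they are given as a description.

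MoMacDC cells were also divided by 8 mature dendritic cell markers (Ccr7, Fscn1, Il4i1, Cacnb3, Apol7c, Ccl22, Tbc1d4 and Slco5a1), none of them among the 7 genes; Il4i1 had 0 UMIs in the cells so chosen. Cells with at least 2 UMIs over the 8 markers are called marker-positive; this is a range of a score, not a cell type. They numbered 55 of 448 in anti-CD40 tumour 1 (12.3%), 77 of 1330 in anti-CD40 tumour 2 (5.79%) and 47 of 1136 in the untreated tumour (4.14%). Just above the cut, with 2 marker UMIs, lay 4, 3 and 9 cells, and just below it, with 1 marker UMI, lay 9, 26 and 49. Their depth was a median of 836, 920 and 378 UMIs, against 1113, 922 and 427 UMIs in the other MoMacDC cells. Macrophage markers summed to 0, 1083 and 3728 CPM in them, monocyte markers to 19.7, 232 and 708 CPM and neutrophil markers to 98.3, 25.8 and 47.2 CPM, while T, NK and B cell markers were at 0. Of the markers of conventional dendritic cells 1, Xcr1 and Clec9a were at 0 and Irf8 carried nearly all of the sum.

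These 179 cells held 5.71% of the UMIs of MoMacDC but 90.7% of the eYFP UMIs, 43.5% of Relb, 41.4% of Cd40, 37.6% of Traf1, 22.8% of Nfkb2 and 12.7% of Birc3. Of the 80 eYFP-positive cells, 69 were marker-positive: 25 of 27 in anti-CD40 tumour 1, 27 of 27 in anti-CD40 tumour 2 and 17 of 26 in the untreated tumour. eYFP was 1592, 1199 and 1935 CPM in marker-positive cells, against 12.8, 0 and 27.3 CPM in the other MoMacDC cells. Its log2 change was 7.16 ± 0.40 (edgeR with the tumour as a block, adjusted p = 5.03e-53), a fitted value that depends on the count of 0, and it lay between 6.32 without anti-CD40 tumour 2 and 9.77 without pool 1. In the other cells of every tumour, eYFP lay below the filter on low counts. It thus entered this test through the marker-positive cells alone, so that its call is not read. This fit too left 2 residual degrees of freedom, so that its p-values rest on the spread shared between genes. Relb rose by 3.52 ± 0.38, Cd40 by 3.24 ± 0.37 (3.93 without the untreated tumour), Traf1 by 3.20 ± 0.29 and Nfkb2 by 2.18 ± 0.33, with adjusted p between 1.06e-26 and 1.15e-09. Birc3, at 1.11 ± 0.46 (adjusted p = 0.0606), missed the threshold here and passed it under 5 of the alternatives tried. Thus 5 of 6 genes passed as higher, with the part of eYFP in this count not read. Of 5447 genes, 9.34% passed as higher and 14.2% as lower, and the median change was -0.29. Relative to it, the 5 stood between 2.47 for Nfkb2 and 7.45 for eYFP.

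The share of eYFP-positive cells differed between the ends of the marker range. In cells with no marker UMI it was 0.26% of 384, 0% of 1227 and 0.385% of 1040 in anti-CD40 tumour 1, anti-CD40 tumour 2 and the untreated tumour. In cells with 10 or more it was 52.5% of 40, 44.6% of 56 and 42.9% of 7. The interval of the last value was 9.90 to 81.6%. Between these ends the share did not climb at every step: with 2 to 3 marker UMIs it was 16.7%, 16.7% and 17.6%, and with 4 to 9 it was 33.3%, 6.67% and 47.8%, from 6 to 23 cells each.

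**Figure D3:**
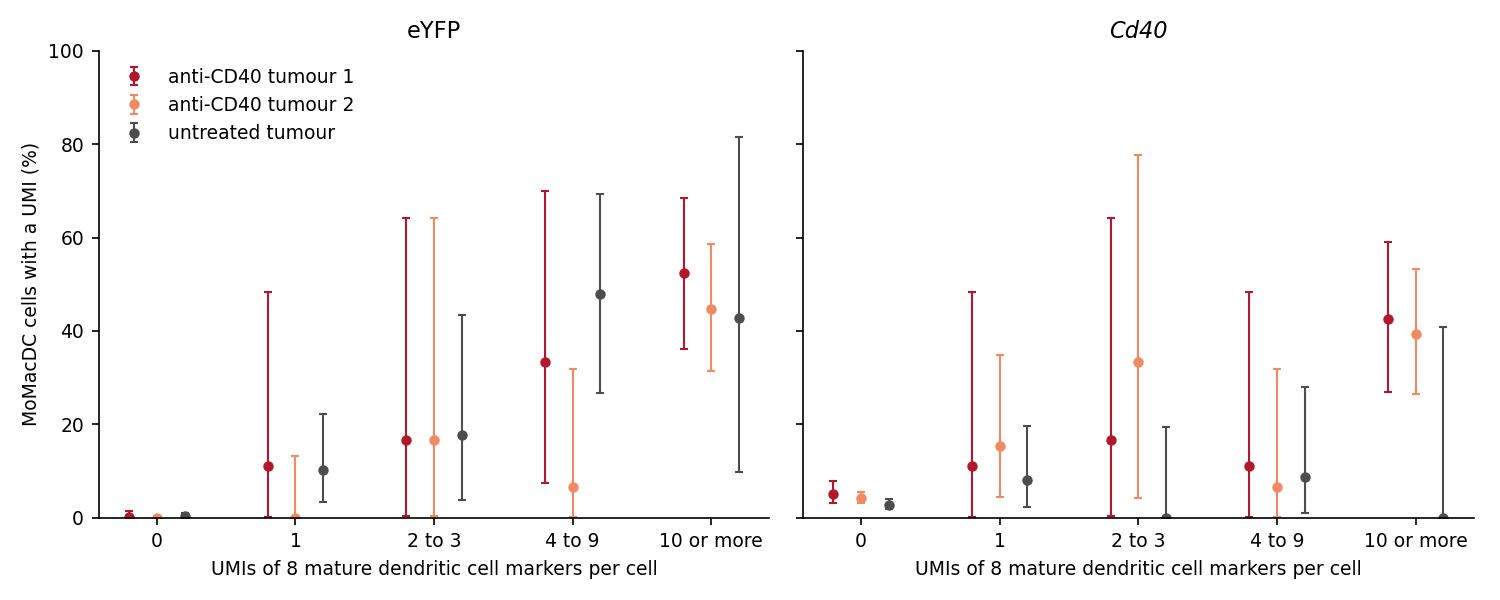
Share of MoMacDC cells with an eYFP UMI (left) or a Cd40 UMI (right) (y axis, percent) by the number of marker UMIs in the cell (x axis), for each tumour; bars are Clopper-Pearson 95% intervals. eYFP reaches 42.9 to 52.5% at 10 or more marker UMIs in all 3 tumours, where Cd40 is at 42.5% and 39.3% in the anti-CD40 tumours and at 0 of 7 cells in the untreated tumour.

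Inside the marker-positive cells, Cd40 was the single member that passed the treatment test. It had 35 UMIs in anti-CD40 tumour 1 (688 CPM, 479 to 957) and 52 in anti-CD40 tumour 2 (671 CPM, 501 to 879), against 2 UMIs in the untreated tumour (94.4 CPM, 11.4 to 341). For anti-CD40 tumour 1 the ratio to the untreated tumour was 7.29 (counting interval 1.87 to 62.5), and for anti-CD40 tumour 2 it was 7.11 (1.87 to 60.2). The levels of the treated tumours were close to each other, and neither of their CPM intervals met that of the untreated one. The log2 change was 2.84 ± 0.78 (edgeR, adjusted p = 0.0115), and 3.73% of 1153 genes passed as higher and 1.39% as lower. The 2 UMIs of the untreated tumour lay below the filter on low counts. Cd40 thus entered this test through the treated tumours alone, so that its call is not read and the levels stand as a description. Within pools 1 and 2 the log2 change was 3.00 and 2.58 without a test. The call was lost without pool 1 (log2 change 2.59, adjusted p = 0.136), without pool 2 (3.18, adjusted p = 0.0520) and without pool 4 (2.71, adjusted p = 0.0520), so that the sizes stayed near the value over all pools.

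The marker-positive cells of the conditions also differed in marker level and depth. Those with 10 or more marker UMIs numbered 40 of 55 and 56 of 77 in the anti-CD40 tumours, against 7 of 47 in the untreated tumour. Over all marker-positive cells, Fscn1, itself one of the 8 markers that chose them, was 11202 and 11452 CPM in the anti-CD40 tumours, against 3067 CPM in the untreated tumour. Cd40 was found in 42.5% and 39.3% of the cells with 10 or more marker UMIs in the anti-CD40 tumours, against 0 of 7 in the untreated tumour. In cells with 4 to 9 marker UMIs, Cd40 was found in 11.1% of 9, 6.67% of 15 and 8.70% of 23, in the order anti-CD40 tumour 1, anti-CD40 tumour 2 and untreated tumour. Thinned to 300 UMIs, the Cd40 shares of marker-positive cells were 9.62% and 13.5% in the anti-CD40 tumours, against 6.06% in the untreated tumour, with 3, 3 and 14 cells left out. In these cells macrophage markers were 0 and 1083 CPM in the anti-CD40 tumours, against 3728 CPM in the untreated tumour, mitochondrial transcripts 13933 and 14277 CPM, against 20620.0 CPM, and dissociation genes 1120.2 and 2309 CPM, against 661 CPM. The part of depth, of marker level and of these lists in the Cd40 difference was not tested.

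The reporter and the NF-kB genes did not pass this test. eYFP was found in 45.5% and 35.1% of marker-positive cells of the anti-CD40 tumours, against 36.2% in the untreated tumour, and in 30.8%, 21.6% and 30.3% after thinning; its log2 change was -0.46 ± 0.36 (adjusted p = 0.603). As a ratio to the untreated tumour, the eYFP level of anti-CD40 tumour 1 was 0.823 (0.558 to 1.23), and that of anti-CD40 tumour 2 was 0.62 (0.425 to 0.918). Traf1 had 2083 and 1509 CPM in the anti-CD40 tumours, against 1509.9 CPM in the untreated tumour (log2 change 0.26 ± 0.38, adjusted p = 0.780). Relb had 569.9 and 399.8 CPM, against 472 CPM, and Nfkb2 had 943 and 735 CPM, against 708 CPM, with log2 changes of 0.04 ± 0.56 and 0.26 ± 0.45. Birc3 had 197 and 206 CPM, against 94.4 CPM from 2 UMIs (log2 change 1.10 ± 1.09). For Relb, the untreated tumour lay between the treated ones, and for Traf1 it met anti-CD40 tumour 2.

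**Figure D4:**
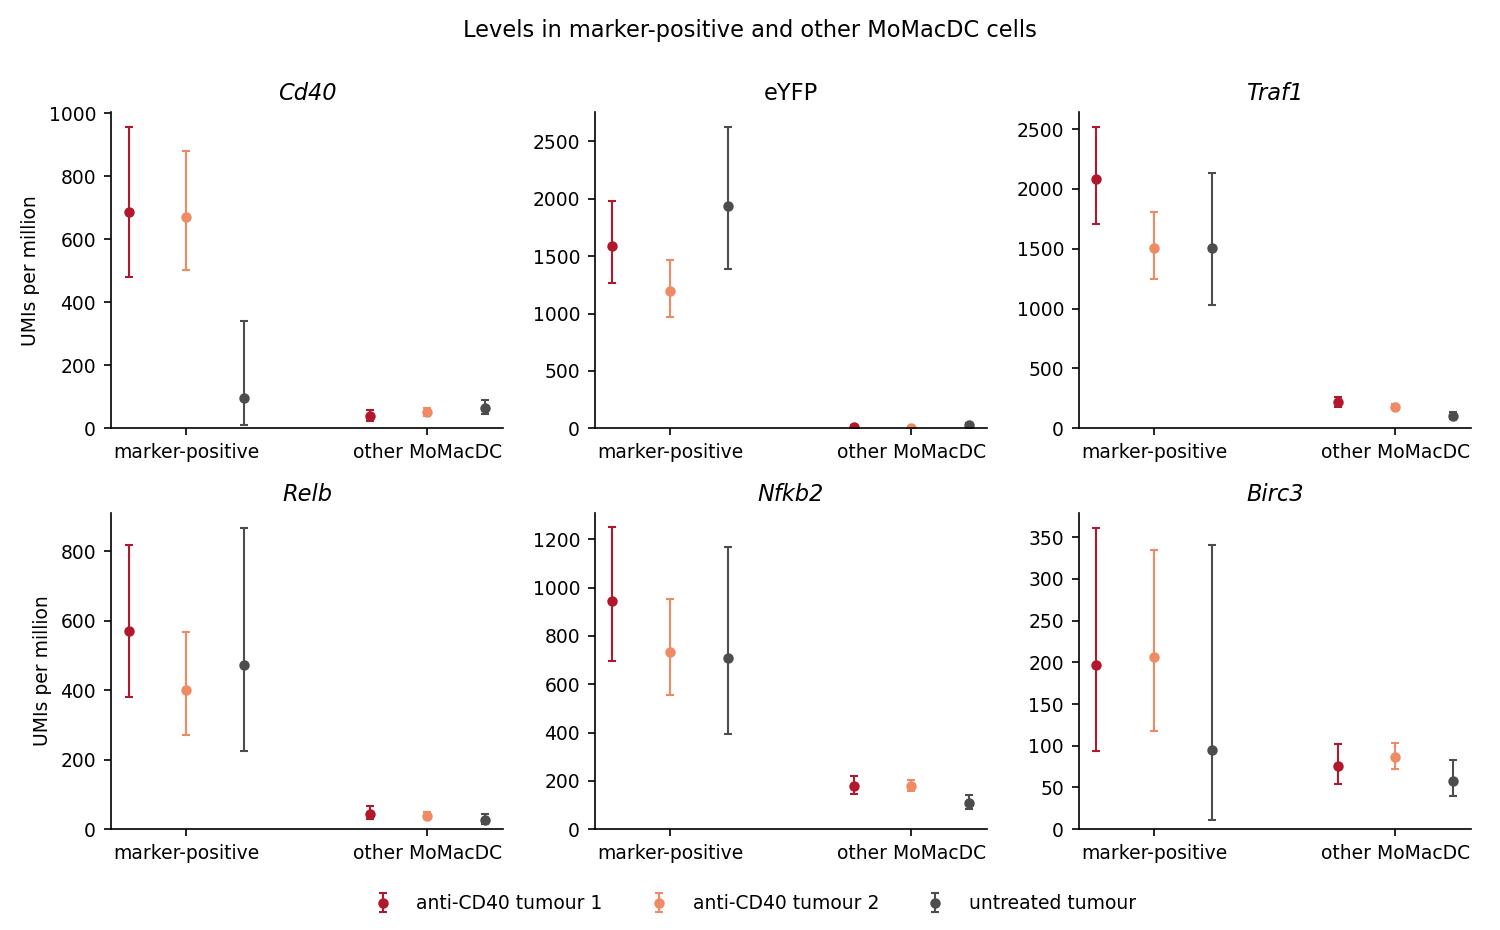
Level of 6 genes (CPM, y axis, from 0) in marker-positive and other MoMacDC cells (x axis) of each tumour, with exact Poisson 95% intervals. Traf1, Relb, Nfkb2 and eYFP are higher in marker-positive cells of all 3 tumours, and Cd40 is at 688 and 671 CPM in those of the anti-CD40 tumours, against 94.4 CPM in those of the untreated tumour.

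In the MoMacDC cells below the marker cut, Cd40 was 38.5 and 50.1 CPM in the anti-CD40 tumours, against 65.6 CPM in the untreated tumour (log2 change -0.48 ± 0.44, adjusted p = 0.830), a comparison chosen after the data had been seen. Traf1 (218 and 179 CPM, against 106 CPM) and Nfkb2 (179.9 and 181 CPM, against 109 CPM) were above the untreated tumour in both treated ones, with adjusted p of 0.644 and 0.713. Here 0 of 6 genes passed by edgeR (1, Traf1, at an unadjusted p below 0.05) and 0 by DESeq2, where 0.0429% of 6991 genes passed as higher and 0.0286% as lower. The difference in treatment effect between marker-positive and other cells, also added after seeing the data, was 3.78 ± 0.99 for Cd40 on the log2 scale (edgeR, adjusted p = 0.134), against a median of 0.64 over all genes. In that fit 0.0595% of 6727 genes passed as higher and 0 as lower, and none of the 6 members did. The unadjusted p was below 0.05 for 264 of the genes tested, and DESeq2 called 10 genes.

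Within marker-positive cells, no member passed between eYFP-positive and eYFP-negative cells. Among marker-positive cells, in a comparison added after seeing the data, Cd40 had a log2 change of 1.03 ± 0.41 between eYFP-positive and eYFP-negative cells (adjusted p = 0.161), Nfkb2 of 0.69 ± 0.32 (0.249), Traf1 of 0.36 ± 0.23 (0.551) and Relb of -0.43 ± 0.43 (0.834). Of 4 members tested, 0 passed by edgeR (2 at an unadjusted p below 0.05) or by DESeq2, where 2.12% of 518 genes passed as higher and 3.47% as lower. Whether these changes differ from those over all MoMacDC cells was not tested. At 300 UMIs per cell, Cd40 was found in 12%, 11.5% and 6.67% of eYFP-positive cells of anti-CD40 tumour 1, anti-CD40 tumour 2 and the untreated tumour, against 7.41%, 14.6% and 5.56% of the eYFP-negative ones. Below the marker cut there were only 11 eYFP-positive cells, 2 in anti-CD40 tumour 1, 0 in anti-CD40 tumour 2 and 9 in the untreated tumour. There 0 of 5 members passed, where 0 of 3849 genes passed as higher (0%) and 0.416% as lower; 160 genes had an unadjusted p below 0.05 and DESeq2 called 2.

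**Figure D5:**
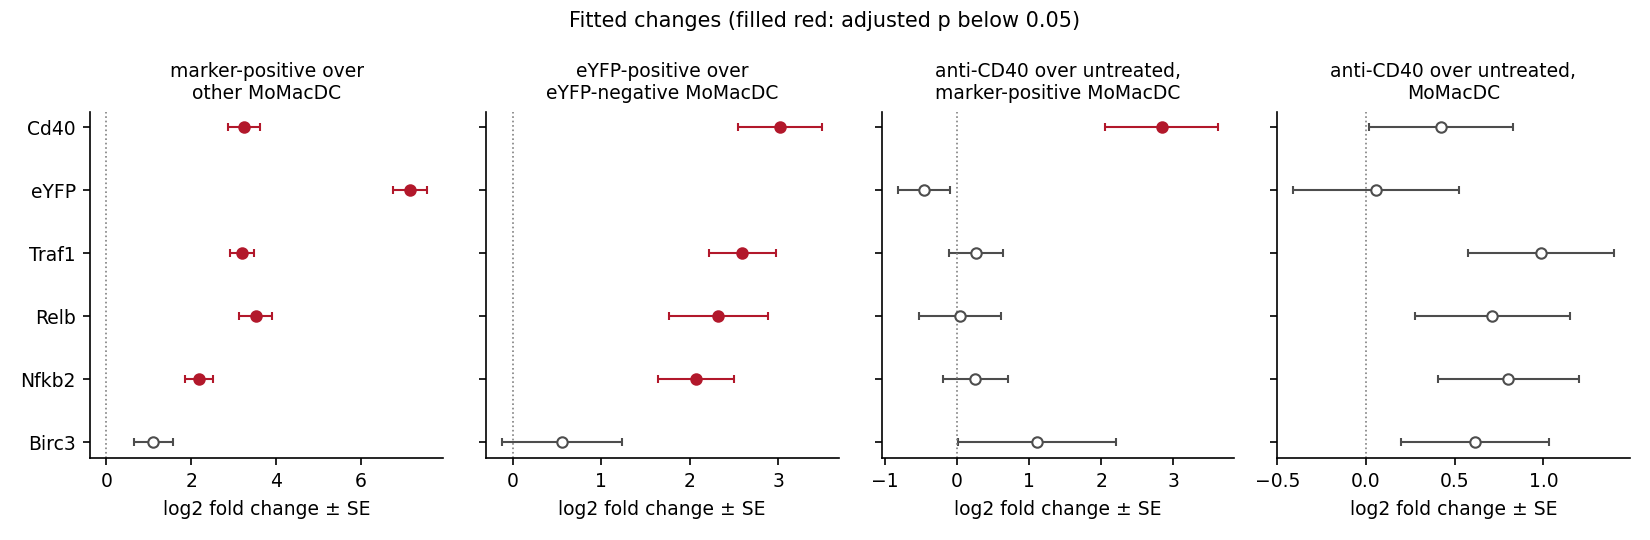
Fitted log2 fold changes (x axis, with standard errors as bars; the scales differ between panels) of 6 genes in 4 comparisons; filled points have an adjusted p below 0.05 over all genes tested. Of these, 5 pass between marker-positive and other MoMacDC cells, 4 between eYFP-positive and eYFP-negative cells, Cd40 alone passes under treatment in marker-positive cells, and no gene passes under treatment in MoMacDC as a whole. Cd40 under treatment in marker-positive cells, and eYFP between marker-positive and other cells, entered the test only through the group where they were higher.

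Other genes of the pathway came from 3 lists. Of 20 CD40 adaptors and NF-kB regulators, 18 were tested between marker-positive and other cells; 8 rose and 1 fell, where 9.34% of all genes rose and 14.2% fell, with a median log2 change of 1.36 against -0.29 over all genes. Those that rose included Birc2, the other cIAP ubiquitin ligase (4.50 ± 0.46), Map3k14, the kinase NIK of the alternative NF-kB arm (2.58 ± 0.48), and Rel, an NF-kB subunit (2.24 ± 0.40). The one that fell was Chuk, an IkB kinase subunit, with 0 UMIs in marker-positive cells of all 3 tumours, against 22, 34 and 27 UMIs in the other cells of anti-CD40 tumour 1, anti-CD40 tumour 2 and the untreated tumour. In the other cells, Birc2 lay below the filter on low counts in every tumour and Map3k14 in both anti-CD40 tumours. Those 2 genes needed the marker-positive cells to enter the test, and Chuk needed the other cells. The part of these 3 genes in the count is not read. Between eYFP-positive and eYFP-negative cells, 4 of 18 rose (Birc2, Rel, Nfkbib and Tnfaip3) and 0 fell, where 5.33% of all genes rose and 10.2% fell, with a median of 0.85 against -0.57. Under treatment in marker-positive cells 3 of 12 rose and 0 fell, where 3.73% of all genes rose and 1.39% fell, with a median of 0.81 against 0.14. Of these, Nfkbia (log2 change 1.41 ± 0.37, adjusted p = 0.0100) and Tnfaip3 (2.94 ± 0.76, adjusted p = 0.00812) encode feedback inhibitors of NF-kB, and Tnip1 (adjusted p = 0.0371) encodes a partner of the Tnfaip3 protein. Nfkbia was 4952 and 6087 CPM in the anti-CD40 tumours, against 2123 CPM in the untreated tumour, Tnfaip3 had 40 and 53 UMIs, against 2, and Tnip1 had 13 and 21 UMIs, against 0. In the untreated tumour, Tnfaip3 and Tnip1 lay below the filter on low counts. Both entered the test through the treated tumours alone, so that their calls and their part of the count are not read. In MoMacDC as a whole 0 of 20 passed, with a median of 0.08 against 0.02.

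Of 16 products known to follow CD40 ligation, 15 were tested between marker-positive and other cells; 12 rose and 1 fell (Tnf), where 9.34% of all genes rose and 14.2% fell, with a median of 2.09 against -0.29 over all genes. The 12 included the costimulatory genes Cd80, Cd86 and Cd70 and the maturation marker Cd83 (3.28 ± 0.28). Of the 12, Cd70 and Tnfsf4 had 0 UMIs in the other cells of every tumour. Fas, Il6 and Ccl17 lay below the filter on low counts in those cells of every tumour, and Tnfsf9 in those of anti-CD40 tumour 1 and the untreated tumour. All of these needed the marker-positive cells to enter the test, and Tnf entered it through the other cells alone. Their part of the count is not read. Genes as sparse could do the same between eYFP-positive and eYFP-negative cells, where Cd70 and Tnfsf4 also rose. Between eYFP-positive and eYFP-negative cells 9 of 16 rose and 1 (Socs3) fell, where 5.33% of all genes rose and 10.2% fell, with a median of 1.59 against -0.57. Under treatment in marker-positive cells, 2 of 12 rose and 1 fell, where 3.73% of all genes rose and 1.39% fell. The median log2 change was 1.10, against 0.14 over all genes. Tnfsf4, with 0 UMIs in the untreated tumour, and Socs3, with 1 UMI there, entered the test through the treated tumours alone. Ccl17 lay below the filter in both treated tumours and entered through the untreated one alone. The count of products that passed is therefore not read. Socs3, an inhibitor of cytokine signalling, had 19 and 54 UMIs in the anti-CD40 tumours, against 1 UMI in the untreated tumour (adjusted p = 0.0106), and Tnfsf4, the ligand of OX40, had 14 and 18 UMIs, against 0 (adjusted p = 0.0470). Ccl17, a chemokine of dendritic cells, fell: it had 78.6 and 77.4 CPM in the anti-CD40 tumours, against 1274 CPM in the untreated tumour, with a log2 change of -3.96 ± 0.56 (adjusted p = 2.91e-09). It was also the one product of 16 that passed in MoMacDC as a whole (-3.41 ± 0.55, adjusted p = 0.00870). There too Ccl17 entered the test through the untreated tumour alone, so that neither of its calls is read.

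Of 9 genes of the interleukin-12 family and its receptors, few had UMIs enough to be tested. Il12a, the partner chain that forms interleukin-12 with p40, and Cd40lg, the natural ligand of CD40, had 0 UMIs in MoMacDC of every tumour. Il23a, which pairs with p40 to form interleukin-23, had 7, 7 and 3 UMIs in anti-CD40 tumour 1, anti-CD40 tumour 2 and the untreated tumour and was higher in eYFP-positive than in eYFP-negative cells (log2 change 4.67 ± 0.93, adjusted p = 1.74e-05), from 17 UMIs in all. In eYFP-negative cells it lay below the filter on low counts. Il23a thus entered this test through the eYFP-positive cells alone, so that its call is not read. Ebi3, a chain of interleukin-27, and Stat4, a transcription factor that acts downstream of the interleukin-12 receptor, also rose with eYFP, by 2.68 ± 0.53 and 3.45 ± 0.64. Stat4 too needed the eYFP-positive cells to pass the filter. The other 6 genes of the list were too low to be tested, and a gene as sparse as these could pass the filter through the cells where it is high, so that no count over the list is read. Between marker-positive and other cells, Ebi3 and Stat4 were the genes tested, and both rose, with Stat4 entering the test through the marker-positive cells alone. Under treatment 0 of 4 passed in MoMacDC and 0 of 2 in marker-positive cells. Ccl22 is both a product and a marker and was left out of the product count between marker-positive and other cells.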

How the data were processed

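UMI counts per gene and cell were deposited by the authors for 4 sequencing pools, with a table of cells that gives the tumour, library, cell type and neutrophil subset. The submitters' processing notes name bcl2fastq, STAR and the build GRCm38; for the counting tool, strand use and doublet removal, the authors' settings were "not given in the sources used here". All 4440 cells listed were used, with no further filter; cells with at least 3 UMIs of a second type's markers were left out as an alternative. The members and all gene lists were chosen with earlier results of these data known.

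Counts were summed per tumour and population and tested with edgeR 4.0.16 (quasi-likelihood, TMM scaling, its default filter on low counts, robust) in R 4.3.3, with Benjamini-Hochberg adjustment over all genes tested and a threshold of 0.05. Comparisons of eYFP-positive or marker-positive cells had the tumour as a block, because both groups came from the same animals. DESeq2 1.42.0 was an alternative; where it gave no adjusted p, none is counted. The comparison by eYFP inside marker-positive cells, that by treatment below the marker cut, and the difference between the treatment effects were added after seeing the data. The fits were tested on simulated data. Intervals of CPM are exact Poisson, of shares Clopper-Pearson and of ratios conditional binomial, at 95%, and cover counting error only; a count of 0 is given the limit of 3 counts. Thinning drew 300 UMIs per cell. Likeness used log2(CPM + 10) of genes with at least 200 UMIs. Besides the 7 members, genes were named where they passed from the 3 lists, with the 10 genes most like eYFP by p (at least 20 UMIs in positive cells) and the 5 most like Cd40; Fscn1 under treatment, Il12a and Cd40lg at 0, and the neutrophil subsets were named after their values were seen.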

Additional observations from a re-analysis of the deposited data

Results flagged for a closer look

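The treatment effect on Cd40 differed between marker-positive and other MoMacDC cells by 3.78 on the log2 scale (interaction term of edgeR, adjusted p = 0.134, so that it failed the correction). Cd40 was higher in both anti-CD40 tumours than in the untreated tumour in marker-positive cells (35 and 52 UMIs, against 2) and lower in both by level in the other cells (38.5 and 50.1 CPM, against 65.6 CPM, with overlapping intervals). In those other cells the share with a Cd40 UMI was 5.34% and 4.55% in the anti-CD40 tumours, against 3.03% in the untreated tumour, and 1.63% and 0.925%, against 2.19%, after thinning to 300 UMIs.

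Relb moved in opposite directions in MoMacDC and in T cells: both anti-CD40 tumours lay above the untreated tumour in MoMacDC and below it in T cells, a difference of 1.79 on the log2 scale of summed CPM. The T cell counts were 2 and 4 UMIs in the anti-CD40 tumours, against 7 in the untreated tumour, and the difference was not tested. Birc3 did the same, with a difference of 0.993 on that scale and 3 and 12 UMIs in T cells of the anti-CD40 tumours, against 10 in the untreated tumour; it was not tested either.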

How the results depend on the processing

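Of 699 values of member genes recomputed under other settings, 642 counted as the same, 23 reversed, 22 moved, 7 newly passed and 5 no longer passed. Where a test was possible, the same means the same direction and call. Where none was, it means within the SE of the main value, and moved means beyond it. A turn of sign in such an untested value was not counted as reversed unless the main value had been called. The causes were not tested. The number of genes called under treatment in MoMacDC, 29, was 89 with plain library size, 141 with no filter on low genes, 16 with DESeq2, 49 without cells with markers of a second type, 13 with cells of at least 500 UMIs and 1 to 27 leaving out 1 pool each. In neutrophils (12) it was 7 with RLE size factors, 7 with no filter and 3 to 25 leaving out a pool, and plain library size called 14, of which 6 were higher and 8 lower, against 11 and 1. In T cells (39) it was 7 with DESeq2 and 19 to 32 leaving out a pool. In NK cells (15) it was 8 with no filter, 1 with DESeq2, 37 at 500 UMIs and 1 to 16 leaving out a pool. Between eYFP-positive and eYFP-negative cells (826) it was 215 to 836 leaving out a pool or tumour, lowest without anti-CD40 tumour 2 and 309 without anti-CD40 tumour 1, and plain library size split the calls into 366 higher and 320 lower, against 283 and 543. Between marker-positive and other cells (1282) it was 763 with a marker cut of 1 UMI and 577 to 1137 leaving out a pool or tumour. Below the marker cut, the eYFP comparison (16) gave 3 with RLE, 1 with plain library size, 9 with no filter, 2 with DESeq2, 7 without second-type cells, 1 at 500 UMIs, 0 with eYFP-positive at 2 UMIs and 0 to 16 leaving out a pool or tumour. Treatment in marker-positive cells (59) gave 25 with no filter, 7 with DESeq2, 37 at 500 UMIs and 25 to 39 leaving out a pool.

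Among the comparisons added later, eYFP inside marker-positive cells (29) gave 19 with no filter, 12 with DESeq2 and 0 to 24 leaving out a pool or tumour. Treatment below the cut (5) gave 8 with RLE, 9 with plain library size, 98 with no filter, 17 with DESeq2, 119 without second-type cells, 3 at 500 UMIs and 3 to 50 leaving out a pool. The difference of effects (4) gave 2 with plain library size, 2 with no filter, 10 with DESeq2, 31 at 500 UMIs and 0 to 3 leaving out a pool; at 500 UMIs Cd40 (11.52) and eYFP (3.89) passed, fitted values that are no bound. With no replicate block for the tumour, the eYFP comparison below the cut called 42 genes and that inside marker-positive cells 1, and no call of a member was lost, while Birc3 between marker-positive and other cells passed (1.32).

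The Cd40 share of MoMacDC cells was 8.93% and 6.17% in anti-CD40 tumours 1 and 2 without thinning, and 3.89% in anti-CD40 tumour 2 thinned to 500 UMIs, against 2.63% and 1.66% at 300 UMIs. Reversed log2 changes, all of values that were not called, were, for eYFP below the cut, Cd40 -0.22 and Traf1 -0.12 with no filter, Traf1 -0.02 at 500 UMIs and -0.32 with eYFP-positive at 2 UMIs; under treatment in marker-positive cells, Relb -0.02 with RLE and -0.14 with a cut of 3 UMIs and eYFP 0.29 at 500 UMIs; and, for the difference of effects, Nfkb2 0.05 without second-type cells and, at 500 UMIs, Traf1 0.15, Relb 0.28 and Nfkb2 1.60. Leaving out a pool or tumour gave ranges of -0.51 to 0.50 for eYFP under treatment in MoMacDC (-0.16 without pool 2) and -0.33 to 0.19 for Traf1 in T cells (0.11 without pool 4). In marker-positive cells under treatment these were -0.21 to 0.81 for Traf1, -0.38 to 1.12 for Nfkb2 and -0.26 to 0.47 for Relb (-0.10 without pool 2, -0.11 without pool 4). For the difference of effects they were -0.75 to 1.23 for Relb, -0.77 to 0.64 for Traf1 and -0.29 to 0.82 for Nfkb2, and for eYFP below the cut -0.63 to 0.74 for Traf1 and -0.39 to 1.88 for Nfkb2 (-0.02 without pool 1). Few UMIs were found for Il12b, for Relb outside MoMacDC and in the untreated marker-positive cells, where Cd40 rests on 2 UMIs. The part of depth in these low counts was not tested.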
